A study of Mus musculus with 18 samples.

Results

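The 10 genes described here encode transcription factors that direct heart formation in the embryo, chosen by name and matched to the Ensembl rows of a table of gene counts. They are the T-box factors *Tbx20*, *Tbx5* and *Tbx18*, the zinc finger factors *Gata4*, *Gata5* and *Gata6*, the basic helix-loop-helix factors *Hand2* and *Tcf21*, the MADS-box factor *Mef2c* and the homeodomain factor *Meis1*. All 10 were among the 38924 rows of the table, and 9 of the 10 were among the 16577 genes with enough counts to be tested. *Gata5* was the exception.

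RNA-seq was carried out on 18 libraries of adult mouse fibroblasts from the heart (HF), kidney (KF) and tail (TF), in 6 groups of 3. The donors, Rosa mT/mG males 10 weeks of age on a C57BL/6 background, carry a membrane TdTomato reporter in every cell, and their cells were grown for 10 days first. In the cultured groups (HFc, KFc, TFc) the cells were then kept in culture for 3 more days. In the transplanted groups (HFs, KFs, TFs) gelatin foam loaded with cells was placed beneath the capsule of the kidney in C57bl6/j hosts, syngeneic mice aged 10 to 11 weeks, and CD45−;TdTomato+ cells were sorted 3 days later. The comparisons ask whether fibroblasts keep the regulators of their organ of origin when moved to a foreign site. The labels give neither the culture nor the host behind each library, so p-values measure the spread between these libraries, which may be technical. Because the RNA was bulk, fewer cells of a type and less RNA per cell cannot be told apart.

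Total counts per library ranged from 17927838 to 32245168, and 3 counts corresponded to between 0.093 and 0.167 counts per 1000000 counts (CPM). The summed level of 12 fibroblast genes, which include *Col1a1*, *Vim* and *Lum*, was at least 26249 CPM in every library. CPM values are from here on scaled by the trimmed mean of M-values. The sum does not speak for each gene: *Lum* was at 0.119 ± 0.096 CPM in KFc and 0.481 ± 0.302 CPM in HFc. The library labelled KFs replicate 3 stood apart. Its *Xist* level was 1492 CPM against at most 0.404 CPM in each of the other 17 libraries, and 4 Y-linked genes summed to 0.722 CPM there against at least 175 CPM elsewhere, although the donors were described as male. Its summed fibroblast genes were 31957 CPM against 109744 and 84652 CPM in the other KFs libraries. Calls that rest on transplanted kidney fibroblasts are therefore also given without it.

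In the embryonic heart these factors act together. GATA, T-box, HAND and MEF2 proteins bind regulatory DNA of cardiac genes in shared complexes, and *Tbx18* and *Tcf21* mark the epicardium and the cells that leave it to become fibroblasts and mural cells. Several are also used elsewhere in the body, with *Tcf21* needed for kidney glomeruli, *Meis1* present in many mesenchymes and *Gata6* in endoderm and vessels.

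Upstream sequence from RefSeq (GRCm38.p6) was examined for 7 of the 10 genes, *Tbx20*, *Tbx18*, *Gata5*, *Hand2*, *Mef2c*, *Meis1* and *Tcf21*. That of *Tbx5*, *Gata4* and *Gata6* was not examined. The 250 bases before the start site are printed 5′ to 3′ on the gene's own strand for *Tbx20*, the member with the highest level in cultured heart fibroblasts, for *Hand2*, another gene close to absent outside heart cells, and for *Tbx18*, which all 3 organs expressed. Capitals mark GATA matches, defined as AGATAA or AGATAG or TGATAA or TGATAG on either strand.
*Tbx20*, chr9:24774304-24774553, minus strand: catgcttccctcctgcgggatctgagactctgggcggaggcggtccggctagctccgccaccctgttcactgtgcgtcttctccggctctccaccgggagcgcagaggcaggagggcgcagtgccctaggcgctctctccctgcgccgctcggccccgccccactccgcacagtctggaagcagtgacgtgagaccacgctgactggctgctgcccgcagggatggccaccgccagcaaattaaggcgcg
*Hand2*, chr8:57320733-57320982, plus strand: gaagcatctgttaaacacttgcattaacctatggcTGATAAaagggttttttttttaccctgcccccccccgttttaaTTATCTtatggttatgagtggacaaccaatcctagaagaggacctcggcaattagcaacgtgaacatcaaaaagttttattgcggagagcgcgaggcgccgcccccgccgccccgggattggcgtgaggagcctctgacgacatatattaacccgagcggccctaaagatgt
*Tbx18*, chr9:87731261-87731510, minus strand: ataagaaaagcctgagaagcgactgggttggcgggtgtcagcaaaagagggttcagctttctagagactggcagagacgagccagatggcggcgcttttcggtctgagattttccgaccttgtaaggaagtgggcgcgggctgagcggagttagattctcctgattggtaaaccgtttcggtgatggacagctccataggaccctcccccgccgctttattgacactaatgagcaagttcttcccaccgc

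*Hand2* held 2 GATA matches, from −215 to −210 and from −172 to −167 relative to the RefSeq start, and *Tcf21* held 1, from −31 to −26. The *Tcf21* match lies inside the gene bounds given below, which are from GENCODE and extend upstream of the RefSeq start. The *Tbx20* and *Tbx18* windows held none. Across all 32851 windows of this length, 26.5% held a GATA match. The 7 members had 9 windows, because *Mef2c* has several starts, so counts of members and shares of windows differ in unit. The T-box site AGGTGT was found for 1 member, at 1 of the *Mef2c* starts, against 11.8% of all windows. The E-box CANNTG was found for 5 members, among them *Hand2* and *Tbx18*, against 66.2% of all windows. TGACAG, bound by MEIS factors, was found for none of the 7 and in 15.9% of all windows. The MEF2 sites TATTTTTA and TATTTATA were found for none of the 7 and in 3.9% of all windows. The *Tbx20* window was 68.8% G and C, those of *Tbx18* and *Hand2* 54% and 49.2%, and the median over all windows was 52.4%. A match is a string of letters in this window and not a binding site.

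*Tbx20*, a T-box factor required for chamber formation and for adult cardiomyocytes, was the most heart-restricted of the T-box members. It lies at chr9:24718138-24774303. It measured 1177, 1223 and 1155 CPM in HFc and 373, 397 and 448 CPM in HFs. The KFc libraries held 1, 0 and 4 counts and the KFs libraries 0, 3 and 1 counts. The TFc libraries held 5, 8 and 12 counts and the TFs libraries 4, 2 and 2 counts. All 6 heart libraries thus lay far above all 12 others, and the 4 non-heart groups overlapped with their neighbours in the order of levels.

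*Tbx5*, which patterns the left ventricle, atria and forelimb, was likewise measured above a few counts in heart fibroblasts alone. It lies at chr5:119832668-119885219. It measured 1.35, 2.88 and 1.87 CPM in HFc and 2.28, 2.69 and 4.02 CPM in HFs, from 37 to 106 counts per library. In the other 12 libraries it had between 0 and 9 counts, and KFc had 0 counts in all 3 libraries.

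*Tbx18*, a regulator of the epicardium, the sinus node and mural cells, was measured in all 18 libraries. It lies at chr9:87702800-87731260. It measured 86.3, 94.4 and 89 CPM in HFc and 115, 103 and 118 CPM in HFs. Kidney fibroblasts had 12.5, 13.1 and 12.9 CPM in KFc and 26.8, 40.9 and 14.4 CPM in KFs. Tail fibroblasts had 14.6, 14.8 and 14.5 CPM in TFc and 43.8, 37.8 and 33.1 CPM in TFs. Both heart groups lay above the rest without overlap, TFs and KFs overlapped, and KFs overlapped TFc through replicate 3.

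**Figure D1:**
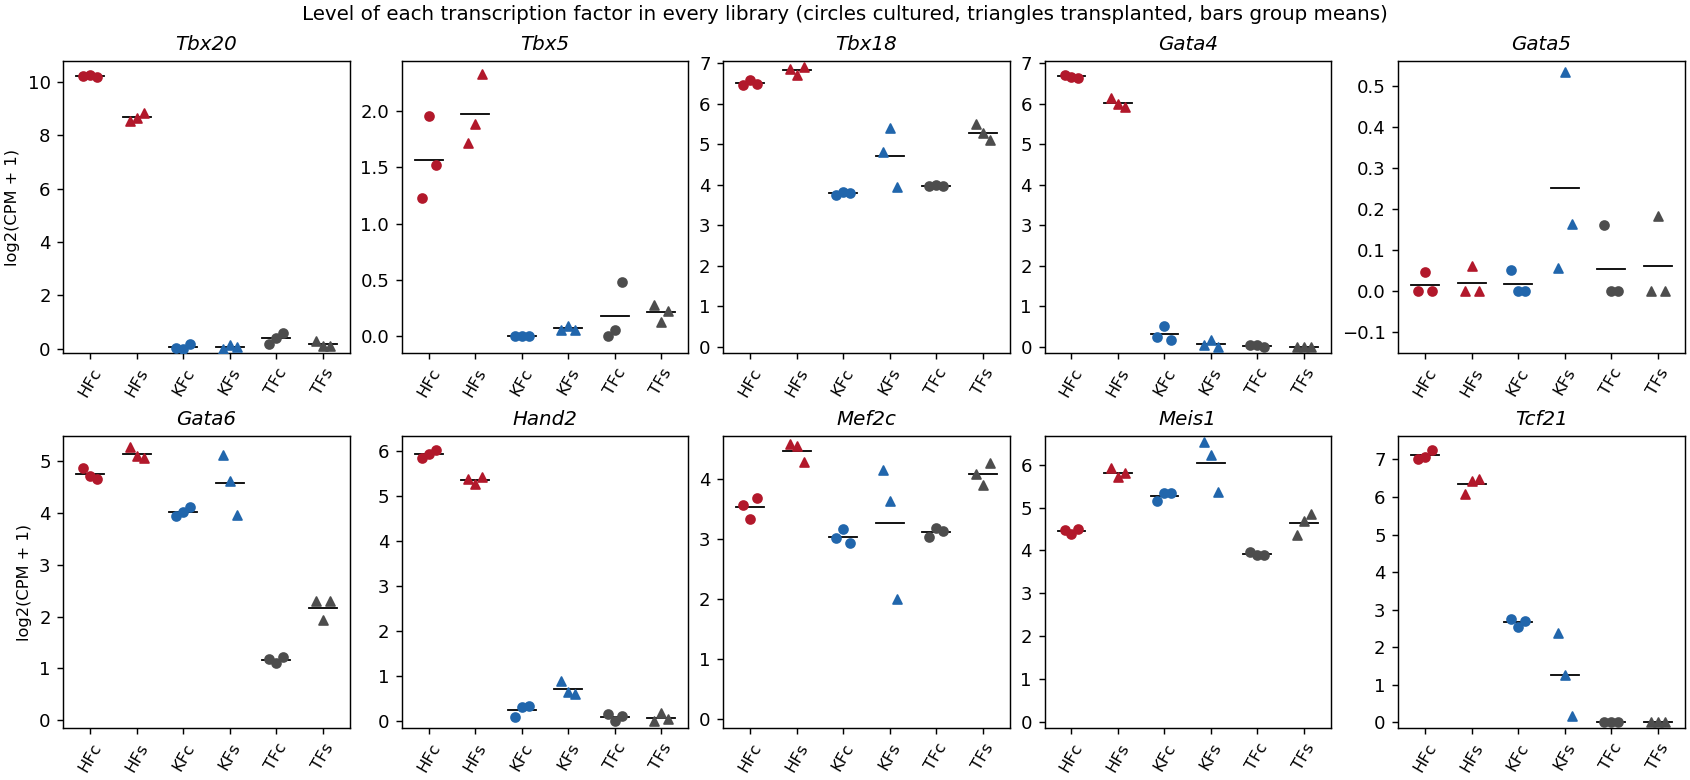
Level of each of the 10 transcription factors in every library, as log2(CPM + 1), in cultured (circles) and transplanted (triangles) fibroblasts of heart, kidney and tail, with a bar at each group's mean of 3. *Tbx20*, *Gata4* and *Hand2* were near 0 outside the heart groups, *Tbx18*, *Mef2c* and *Meis1* were measured in every group, and *Gata5* stayed under 0.5 CPM in every library.

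The 3 GATA factors differed from one another. *Gata4*, a partner of TBX5 and NKX2-5 in cardiac gene activation, lies at chr14:63198922-63271692. It measured 104, 99.9 and 98.9 CPM in HFc and 69.6, 62.6 and 59.3 CPM in HFs. It had at most 12 counts in any kidney library, at most 1 in any TFc library and 0 in all TFs libraries. *Gata6*, an essential factor of endoderm and outflow tract, lies at chr18:11052064-11085635 and was shared by heart and kidney fibroblasts. It measured 28.3, 25.3 and 24.2 CPM in HFc, 37.7, 33.2 and 32.3 CPM in HFs, 14.4, 15.2 and 16.4 CPM in KFc and 33.8, 23.7 and 14.6 CPM in KFs. Tail fibroblasts were the lowest, with 1.28, 1.14 and 1.32 CPM in TFc and 3.91, 2.82 and 3.9 CPM in TFs. The KFs libraries were the most spread and overlapped HFs, HFc and KFc. *Gata5*, an endocardial GATA factor at chr2:180325133-180334699, had between 0 and 4 counts in 17 libraries and 14 counts in KFs replicate 2. No test was made of it.

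Of the basic helix-loop-helix factors, *Hand2*, needed for the right ventricle and for epicardial cells, lies at chr8:57320983-57324633. It measured 56.4, 59.4 and 63.8 CPM in HFc and 40.1, 37.3 and 41.7 CPM in HFs. It had 2, 7 and 8 counts in KFc, 21, 18 and 13 counts in KFs, and at most 4 counts in any tail library. *Tcf21*, required for cardiac fibroblasts to arise from the epicardium and for kidney and lung mesenchyme, lies at chr10:22817281-22820174. It measured 129, 134 and 152 CPM in HFc and 67.2, 84.9 and 88.5 CPM in HFs. It was lower in the kidney, with 5.74, 4.85 and 5.55 CPM in KFc and 4.24, 1.41 and 0.12 CPM in KFs. All 6 tail libraries had 0 counts, so *Tcf21* separated the 3 organs without overlap in culture. After transplantation heart stayed apart, but KFs replicate 3 held only 3 counts and cannot be told from tail.

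*Mef2c* and *Meis1* were the members with the smallest differences between organs. *Mef2c*, a MADS-box factor of the second heart field that also acts in skeletal muscle, vessels and neurons, lies at chr13:83504034-83667080. It measured 10.9, 9.04 and 11.8 CPM in HFc, 7.09, 7.99 and 6.65 CPM in KFc and 7.18, 8.12 and 7.76 CPM in TFc. After transplantation it measured 23, 22.4 and 18.5 CPM in HFs, 16.7, 11.4 and 3.01 CPM in KFs and 15.8, 13.9 and 18.3 CPM in TFs. *Meis1*, a cofactor of HOX and PBX proteins and a regulator of cardiomyocyte cell cycle exit, lies at chr11:18879817-19018985. It was higher in kidney than in heart or tail cultures, with 34.4, 39.8 and 39.4 CPM in KFc, 21.2, 19.8 and 21.6 CPM in HFc and 14.5, 13.8 and 13.9 CPM in TFc. After transplantation it measured 91.8, 73.4 and 40 CPM in KFs, 59.9, 51.2 and 55.1 CPM in HFs and 19.6, 24.9 and 27.7 CPM in TFs. KFs and HFs overlapped, again through KFs replicate 3.

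Levels of different genes were compared only per kilobase of annotated exon. In HFc the order began with *Tbx20* at 98.8 ± 2.9 CPM per kb (SD, n = 3), then *Tcf21* at 58.8 ± 5.12, *Gata4* at 25.9 ± 0.691, *Hand2* at 25.5 ± 1.6 and *Tbx18* at 19.1 ± 0.865 CPM per kb, where *Gata4* and *Hand2* lay within their spread. In HFs *Tcf21* at 34.2 ± 4.86 and *Tbx20* at 33.8 ± 3.19 CPM per kb could not be separated. In KFc the order was led by *Meis1* at 3.59 ± 0.284 CPM per kb, and in TFc by *Tbx18* at 3.10 ± 0.0298 CPM per kb. By group means, the highest member of a tail or kidney culture was therefore below each of the 6 highest members of HFc. The lowest of those 6, *Gata6* at 3.99 ± 0.329 CPM per kb, and *Meis1* in KFc lay within their spread.

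**Figure D2:**
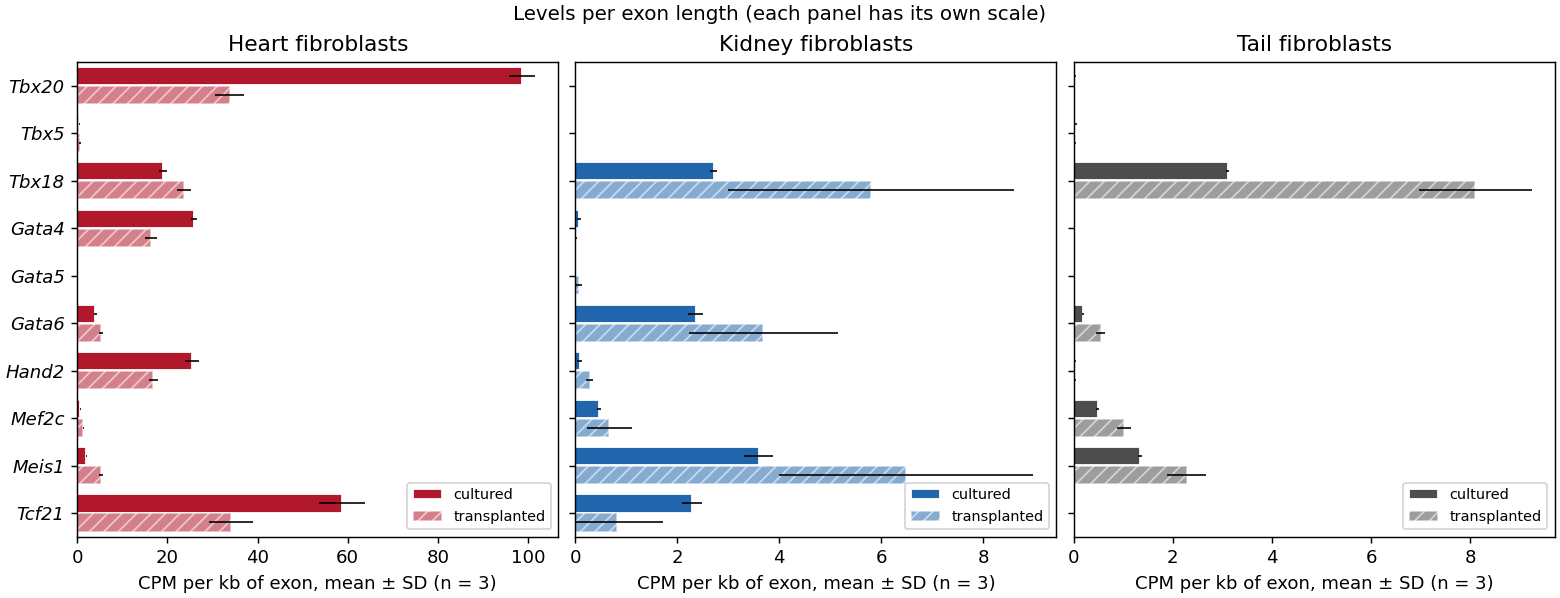
Levels of the 10 factors per kilobase of exon in heart, kidney and tail fibroblasts, as the mean ± SD of 3 libraries, cultured (solid) and transplanted (hatched). The horizontal scale differs between panels: the highest heart mean was that of *Tbx20* in HFc (98.8 CPM per kb) and the highest kidney or tail mean that of *Tbx18* in TFs (8.10 CPM per kb).

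Transplantation of heart fibroblasts was accompanied by a lower *Tbx20* level and by higher *Meis1* and *Mef2c* levels. In edgeR's quasi-likelihood test over all 18 libraries with Benjamini-Hochberg adjustment, a gene was called when the adjusted p was below 0.05 and the log2 fold change beyond 1. In HFs against HFc 2 members were higher and 1 lower, beside 27.7% of all tested genes called, 18.3% higher and 9.33% lower. The median log2 fold change was 0.32 over the 9 members tested and 0.05 over all genes.

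*Tbx20* fell by 1.55 ± 0.20 on the log2 scale (SE, adjusted p = 1.01e-05), to 34.3% of its cultured level, and the 2 groups of 3 libraries did not overlap. *Meis1* rose by 1.41 ± 0.21 (adjusted p = 4.42e-05), 2.65-fold, also without overlap. *Mef2c* rose by 1.01 ± 0.37 (adjusted p = 0.028), 2.01-fold, just past the fold limit. Its call was lost in 4 of the 6 fits that left out 1 library, those without HFc replicate 1 or 2 or HFs replicate 1 or 2, with adjusted p-values up to 0.0941.

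The other members did not pass both thresholds. *Gata4* (log2 fold change −0.66 ± 0.19, adjusted p = 0.01) and *Hand2* (−0.59 ± 0.22, adjusted p = 0.0303) passed the p threshold alone, as did 56.4% of all genes. Their HFs libraries lay below their HFc libraries without overlap, at 63.2% and 66.3% of the cultured level. *Tcf21* was at 58.1% of its cultured level (−0.78 ± 0.47, adjusted p = 0.18), and its libraries did not overlap either. *Tbx18* (0.32 ± 0.23, adjusted p = 0.253), *Gata6* (0.41 ± 0.21, adjusted p = 0.108) and *Tbx5* (0.56 ± 0.68, adjusted p = 0.498) did not pass either threshold. The HFs libraries of *Tbx18* and *Gata6* lay above their HFc libraries without overlap, at 124% and 132% of the cultured level, and those of *Tbx5* overlapped. The share of all genes without overlap was not counted.

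Marker lists of other cell types moved with this comparison. Of 11 epicardial genes, which include *Tbx18* and *Tcf21*, 6 were lower, 1 was higher and 4 were not called in HFs, and their summed level went from between 786 and 816 CPM to between 301 and 406 CPM. *Upk3b*, a surface protein of mesothelium and epicardium, went from 110 ± 0.857 to 1.31 ± 0.842 CPM (log2 fold change −6.32 ± 0.42, adjusted p = 2.33e-07). *Upk1b* (25.4 ± 0.45 to 0.269 ± 0.239 CPM) and *Lrrn4* (39.7 ± 3.11 to 0.901 ± 0.865 CPM) were likewise lower, with log2 fold changes of −6.42 ± 0.61 and −5.37 ± 0.64 (adjusted p = 3.89e-06 and 2.39e-05). *Wt1*, the classical epicardial regulator, was at 1.09 ± 0.101 CPM in HFc and 3.46 ± 0.78 CPM in HFs. These genes were at 0 counts (*Upk3b*, *Upk1b*, *Lrrn4*) or at most 7 counts (*Wt1*) in every tail library. Their part in the lower *Tbx20* level was not tested.

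Most cardiomyocyte genes were at or near 0, and of the 7 tested HFs had 3 above and 2 below HFc (median log2 fold change 1.81). *Myh6*, *Nppa*, *Myl2*, *Myl7*, *Actc1* and *Pln* were among the 9 of 16 with at most 3 counts in every HFc library. *Tnnt2*, cardiac troponin T, fell from 99.4 ± 7.28 CPM in HFc to 3.02 ± 1.58 CPM in HFs (log2 fold change −5.0 ± 0.70, adjusted p = 2.34e-05). *Ryr2*, the calcium release channel of heart muscle, was called higher, from 0.0243 ± 0.0421 CPM in HFc to 0.747 ± 0.241 CPM in HFs. *Nkx2-5*, the homeobox partner of GATA4 and TBX5 in cardiomyocytes, had a mean of 0.304 CPM in HFc and 0.344 CPM in HFs.

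Proximal tubule genes were higher after transplantation, 12 of 12 in HFs. Their summed level was 22.5 to 25 CPM in HFc and 123 to 1239 CPM in HFs, highest in HFs replicate 2. The calls of *Tbx20* and *Meis1* were kept when that library was left out. Of 11 mural genes 10 were tested, and 3 were higher and 5 lower in HFs, among them *Abcc9*, a channel subunit of pericytes (log2 fold change 2.41, adjusted p = 0.00495), and *Myh11*, smooth muscle myosin (−2.54, adjusted p = 0.00195). The mural list summed to between 3529 and 3639 CPM in HFc and between 1123 and 1801 CPM in HFs. Of 8 endothelial genes tested 7 were higher in HFs, and 9 endothelial genes summed to between 39.8 and 42.8 CPM in HFc and between 60 and 68.8 CPM in HFs. The 12 fibroblast genes summed to between 47009 and 49790 CPM in HFc and between 104170 and 168664 CPM in HFs, with 7 higher and 2 lower. The part of these cell types in the members' values was not tested.

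**Figure D3:**
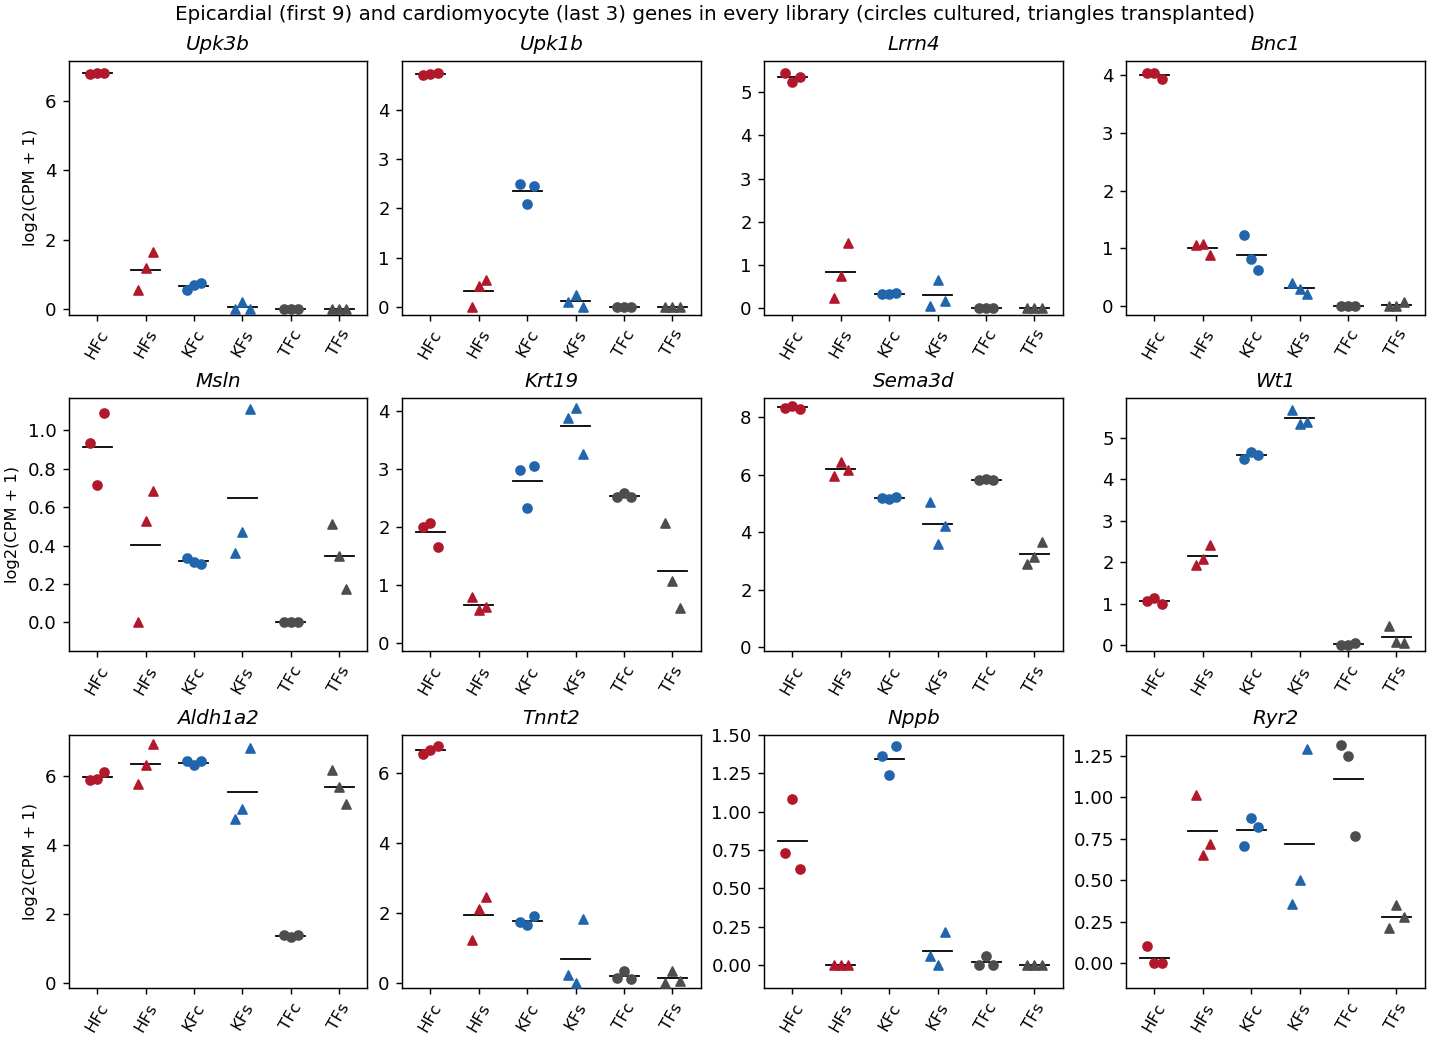
Epicardial genes (first 9 panels) and 3 cardiomyocyte genes (last 3) in every library, as log2(CPM + 1), with bars at group means. *Upk3b*, *Upk1b*, *Lrrn4*, *Bnc1* and *Tnnt2* were high in HFc, much lower in HFs and at or near 0 in tail fibroblasts, whereas *Wt1* was highest in kidney fibroblasts.

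In kidney fibroblasts, *Tbx18* and *Hand2* rose on transplantation and *Tcf21* and *Gata4* fell. These calls depended on the fit over all groups: with only KFs and KFc fitted, 6 members were tested, 0 were called and 3 had an unadjusted p below 0.05. With both thresholds in the fit over all groups, KFs had 2 members above and 2 below KFc, beside 22.6% of all genes, 14.7% higher and 7.99% lower. The median log2 fold change was 0.65 over the 9 members and 0.09 over all genes. Without KFs replicate 3, 5 members were called. *Tbx18* rose by 1.10 ± 0.24 (adjusted p = 0.00135). It depended on KFs replicate 2, without which the log2 fold change was 0.64, and it was 1.36 without KFs replicate 3.

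*Hand2* rose by 1.68 ± 0.42 (adjusted p = 0.00382), from a sum of 17 counts over 3 libraries to a sum of 52, and by 1.75 without KFs replicate 3. *Gata4*, with 21 counts in KFc and 5 in KFs, was 3.97-fold lower by its summed counts (95% exact interval 1.46 to 13.5, counting error only). The call of *Gata4* was lost without KFc replicate 2 or KFs replicate 1, where the adjusted p was 0.152 and 0.0592, and kept without KFs replicate 3 (adjusted p = 0.0472). *Tcf21* fell by 1.49 ± 0.57 (adjusted p = 0.0493), and was not called in DESeq2 (adjusted p = 0.142). Its value in KFs replicate 3 was the lowest, and without that library the change was −1.01 (adjusted p = 0.0198), just past the fold limit. The *Tcf21* call was lost without KFs replicate 2 or any KFc replicate (adjusted p up to 0.112), and the log2 fold change was −2.72 without KFs replicate 1.

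*Meis1* (0.85 ± 0.21, adjusted p = 0.00303) and *Gata6* (0.65 ± 0.21, adjusted p = 0.0184) passed the p threshold alone, as did 48.8% of all genes, and *Mef2c* passed neither (0.52 ± 0.37, adjusted p = 0.257). Without KFs replicate 3, *Meis1* passed both thresholds, at 1.08 (adjusted p = 3.6e-06), and *Mef2c* was at 0.91 and *Gata6* at 0.86. *Tbx20* and *Tbx5* had at most 4 counts in every kidney library, and a change of small size could not be detected at this depth. Proximal tubule genes summed to between 103 and 112 CPM in KFc and between 64 and 133 CPM in KFs, and macrophage genes to between 433 and 466 CPM in KFc and between 12.3 and 143 CPM in KFs, with 10 of 12 tubule genes higher and 6 of 9 macrophage genes lower. Mural genes summed to between 8316 and 8486 CPM in KFc and between 1232 and 2621 CPM in KFs, with 1 of 10 higher and 6 lower. Of 8 endothelial genes 4 were higher and 1 lower. The 12 fibroblast genes, 7 of them higher and 1 lower, summed to between 26249 and 27731 CPM in KFc and between 31957 and 109744 CPM in KFs. Their part in these results was not tested.

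In tail fibroblasts, *Tbx18*, *Gata6* and *Mef2c* rose and no member fell, in edgeR, in DESeq2 or at an unadjusted p below 0.05 (0 members each). This was 3 of the 9 members tested, beside 16.5% of all genes called, 11.0% higher and 5.53% lower. The median log2 fold change was 0.23 over the members and 0.00 over all genes. That member median is the value of *Tbx5*, which had 10 counts in each group, so it says little about the set. With only TFs and TFc fitted, 4 members passed the filter and 3 were called. *Gata6* rose by 1.51 ± 0.26 (adjusted p = 0.000315), 2.84-fold, although its level in TFs was still below that of every heart and kidney library. *Tbx18* rose by 1.38 ± 0.24 (adjusted p = 0.000338), 2.61-fold. *Mef2c* rose by 1.06 ± 0.37 (adjusted p = 0.0332), 2.09-fold, and this call was kept in only 1 of the 6 fits that left out a library, that without TFs replicate 2. *Meis1* passed the p threshold alone (0.78 ± 0.21, adjusted p = 0.00918), as did 38.8% of all genes. *Tbx20*, *Gata4*, *Hand2*, *Tbx5* and *Tcf21* stayed under 0.5 CPM in each group mean. *Tbx20* had 25 counts in TFc and 8 in TFs, 2.45-fold lower by summed counts (95% exact interval 1.07 to 6.28, adjusted p = 0.11), and was called lower without TFc replicate 1 (adjusted p = 0.0379). *Tbx5* was called higher without TFc replicate 3 (adjusted p = 0.0318), against an adjusted p of 0.868 with it.

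Marker lists moved in the tail comparison as well. Proximal tubule genes, 12 of 12 higher, summed to between 19.5 and 21.8 CPM in TFc and between 144 and 346 CPM in TFs. Macrophage genes, 6 of 9 lower, summed to between 179 and 207 CPM in TFc and between 38.7 and 47.2 CPM in TFs. Mural genes, 4 of 10 lower, summed to between 1914 and 1983 CPM in TFc and between 556 and 811 CPM in TFs. Of 8 endothelial genes 3 were higher, and of 12 fibroblast genes 6 were higher and 1 lower. Their part in these changes was not tested.

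**Figure D4:**
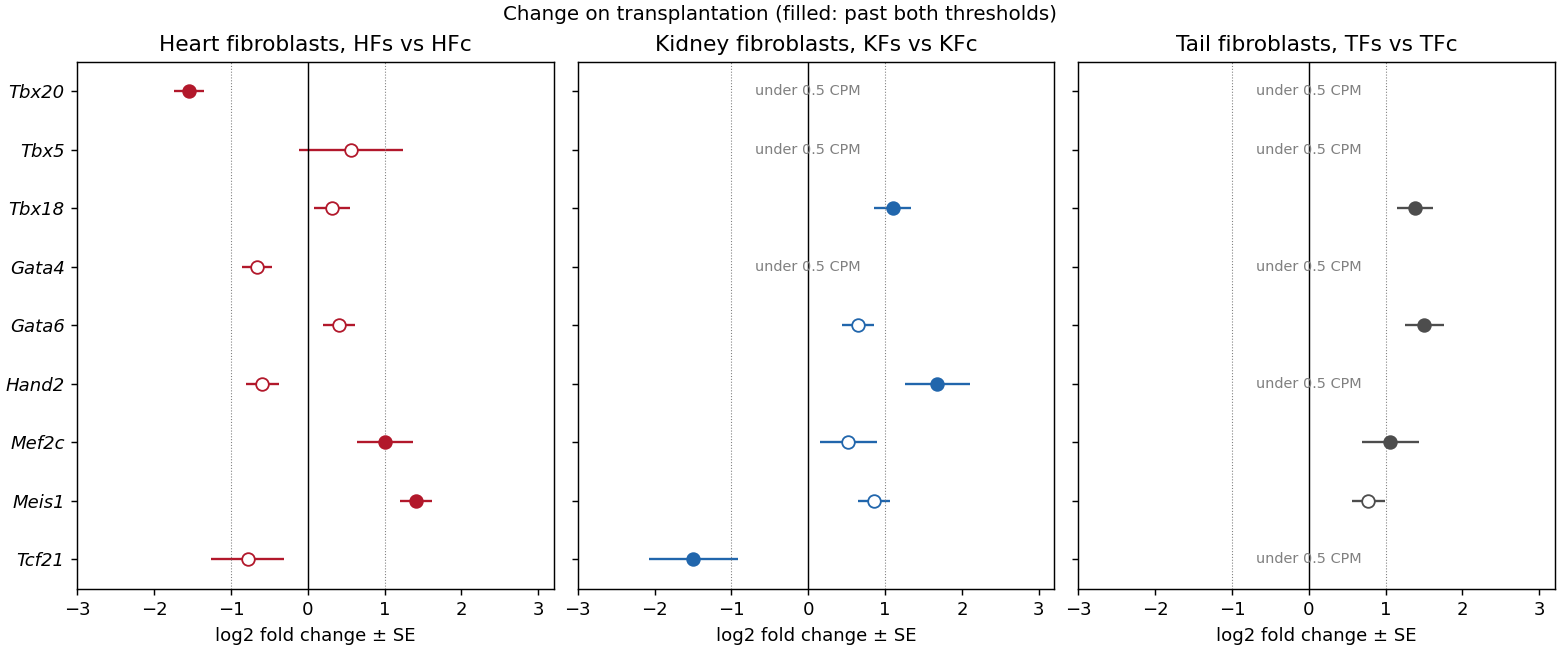
Log2 fold change ± SE of 9 factors on transplantation in heart, kidney and tail fibroblasts (3 against 3 libraries each), filled where both thresholds were passed, with dotted lines at the fold limit. Members whose 2 group means were both under 0.5 CPM are marked and not plotted. *Meis1* and *Mef2c* lay above 0 in each organ, and *Tbx20* in heart fibroblasts was the lowest value (−1.55).

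Responses to transplantation were compared between organs by interaction terms in the same fit, at an adjusted p below 0.05. Between heart and tail, 2 members differed, beside 22.8% of all genes. *Tbx18* changed by 0.32 in heart and 1.38 in tail fibroblasts, a difference of −1.07 ± 0.33 (adjusted p = 0.0289), and *Gata6* by 0.41 and 1.51, a difference of −1.10 ± 0.33 (adjusted p = 0.0257). Both were near the threshold. Among the 12 fits that left out 1 library, the *Tbx18* difference was lost in 10 and the *Gata6* difference in 8, with adjusted p-values up to 0.0902 and 0.0749.

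Between heart and kidney, *Hand2* alone differed among the 9 members, beside 26.2% of all genes. It changed by −0.59 in heart and 1.68 in kidney fibroblasts, a difference of −2.27 ± 0.47 (adjusted p = 0.00261), and of −2.33 without KFs replicate 3. Without that library the *Tbx18* response also differed between heart and kidney, by −1.03 (adjusted p = 0.000428), against −0.78 ± 0.33 (adjusted p = 0.0938) with it. Between kidney and tail, 0 members differed in edgeR or in DESeq2 and 1 did at an unadjusted p below 0.05 (*Gata6*, −0.86 ± 0.33), beside 11.1% of all genes. Without KFs replicate 1 the *Gata6* difference was called (−1.18, adjusted p = 0.00801), and without KFs replicate 3 it was −0.63 (adjusted p = 0.0722). The *Meis1* responses were 1.41, 0.85 and 0.78 in heart, kidney and tail. The heart to tail difference for *Meis1* was 0.63 ± 0.30 (adjusted p = 0.141), and the heart to kidney difference was 0.55 ± 0.29 (adjusted p = 0.185).

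Against tail fibroblasts, heart fibroblasts had higher levels of most members both in culture and after transplantation. In HFc against TFc, 8 of the 9 members tested were higher at an adjusted p below 0.05 and 0 lower in edgeR, in DESeq2 or at an unadjusted p below 0.05, beside 20.9% of all genes higher and 21.0% lower. The median log2 fold change was 4.38 over the members and −0.01 over all genes. *Tbx20*, *Tbx5* and *Gata4* had at most 12 counts in each kidney or tail library and passed the filter through the heart groups. For these 3 genes the direction was thus set by the filter, and the members were chosen with earlier results known. In HFs against TFs, 8 of 9 were again higher and 0 lower by the same 3 counts, beside 10.3% of all genes higher and 12.7% lower, and the members' median was 4.22. The 2 comparisons share no library but come from the same fit. By the study's methods, the cultured controls were cells left over from those collected for transplantation, so the comparisons are not independent.

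The sizes spanned several orders. *Tbx20* was 11.88 ± 0.34 higher on the log2 scale in HFc than in TFc (adjusted p = 3.17e-12) and 11.61 ± 0.36 higher in HFs than in TFs (adjusted p = 2.73e-11). By summed counts its transplanted ratio was 3304-fold (95% exact interval 1677 to 7654). *Tcf21* was at least 1226-fold higher in HFc and at least 568-fold higher in HFs, taking 3 counts in each tail library as the limit. *Gata4* had 7821 counts in HFc and 2 in TFc, a ratio of 4145 (95% exact interval 1147 to 34235), and was at least 452-fold higher in HFs than in TFs. *Hand2* was 813-fold higher by summed counts in culture (95% exact interval 373 to 2216) and 639-fold after transplantation (249 to 2347).

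*Tbx5* was 17-fold higher by summed counts in HFc than in TFc (95% exact interval 8.99 to 36) and 20.1-fold higher in HFs than in TFs (10.7 to 42.5). Its fitted log2 difference in culture was 3.88 ± 0.83, which became 6.50 without TFc replicate 3 and 3.22 without TFc replicate 1. *Gata6* was 20.8-fold higher in HFc and 9.71-fold higher in HFs (log2 fold changes 4.38 ± 0.26 and 3.28 ± 0.24). *Tbx18* was 6.14-fold higher in HFc and 2.93-fold higher in HFs (2.62 ± 0.25 and 1.55 ± 0.24). *Meis1* was 1.48-fold higher in HFc (0.57 ± 0.21, adjusted p = 0.0409), a call lost without any 1 of the 6 libraries (adjusted p from 0.0664 to 0.116), and 2.3-fold higher in HFs (1.2 ± 0.21, adjusted p = 0.000663). *Mef2c* was not called in either (0.46 ± 0.37, adjusted p = 0.34, and 0.41 ± 0.36, adjusted p = 0.465).

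Heart and kidney fibroblasts were separated by fewer members in the same way. In HFc against KFc, 7 members were higher and 1, *Meis1*, was lower, beside 15.1% of all genes higher and 14.0% lower. Here too, *Tbx20*, *Tbx5* and *Gata4* had passed the filter through the heart groups, which set their direction. In HFs against KFs, 7 were higher and 0 lower in edgeR and in DESeq2, beside 14.2% higher and 19.0% lower, and 8 were higher and 0 lower at an unadjusted p below 0.05. Without KFs replicate 3, 8 members were called, with *Meis1* lower and *Tbx20*, *Gata4* and *Tbx5* still higher (adjusted p = 3.19e-12, 7.91e-11 and 0.000832). *Tbx20* was 20338-fold higher by summed counts in HFc than in KFc (95% exact interval 8715 to 62639) and 8316-fold higher in HFs than in KFs (3248 to 30524). *Gata4* was 403-fold higher in HFc (log2 fold change 8.65 ± 0.31) and 1020-fold higher in HFs by summed counts (437 to 3143). *Hand2* was 295-fold higher in HFc and 61.1-fold higher in HFs (8.20 ± 0.34 and 5.93 ± 0.30), and 5.83 higher on the log2 scale without KFs replicate 3. *Tbx5* was at least 19.3-fold higher in HFc and 63.1-fold higher in HFs by summed counts (24.3 to 234).

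The remaining members differed less between heart and kidney. *Tcf21* was 25.7-fold higher in HFc than in KFc (4.68 ± 0.56, adjusted p = 6.95e-05) and 42-fold higher in HFs than in KFs (5.39 ± 0.60, adjusted p = 6.2e-05). Without KFs replicate 3 the transplanted log2 difference of *Tcf21* was 4.88, and without KFs replicate 1 it was 6.61. *Tbx18* was 7.02-fold higher in HFc (2.81 ± 0.25) and 4.08-fold higher in HFs (2.03 ± 0.24), the latter 1.74 on the log2 scale without KFs replicate 3.

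*Gata6* was 1.69-fold higher in HFc than in KFc (0.76 ± 0.21, adjusted p = 0.0125), lost without HFc replicate 1 (adjusted p = 0.051), and did not differ past the threshold between HFs and KFs (0.52 ± 0.21, adjusted p = 0.0672), where it did without KFs replicate 1 (0.84, adjusted p = 0.00196) and was at 0.27 (adjusted p = 0.154) without KFs replicate 3. *Meis1* was lower in HFc than in KFc (−0.86 ± 0.21, adjusted p = 0.00575), at 55.2% of the kidney level. Between HFs and KFs its difference was −0.31 ± 0.21 (adjusted p = 0.277), and −0.56 (adjusted p = 0.00254) without KFs replicate 3. *Mef2c* was 2.05-fold higher in HFs than in KFs (1.03 ± 0.37, adjusted p = 0.04). This value was 0.61 without KFs replicate 3, and the call was lost without any 1 HFs library or without KFs replicate 2, with adjusted p-values up to 0.0996.

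Kidney fibroblasts carried a partial set when compared with tail. In KFc against TFc, 4 members were higher and 2 lower, beside 17.8% and 18.5% of all genes. In KFs against TFs, 4 were higher and 0 lower in edgeR and in DESeq2, beside 15.3% and 13.8%, and 5 were higher and 0 lower at an unadjusted p below 0.05. *Gata6* was 12.3-fold higher in KFc (3.62 ± 0.25, adjusted p = 4.44e-08) and 6.78-fold higher in KFs (2.76 ± 0.23, adjusted p = 7.33e-07). *Meis1* was 2.69-fold higher in KFc (1.43 ± 0.21) and 2.84-fold higher in KFs (1.51 ± 0.21). *Tcf21* was at least 47.7-fold higher in KFc and at least 13.6-fold higher in KFs, where 1 library held 105 of the 152 counts. Without KFs replicate 3 the log2 differences between KFs and TFs were 3.02 for *Gata6* and 1.78 for *Meis1*, and 5 members were called, with *Tcf21* kept (adjusted p = 5.34e-05) and *Gata4* added (adjusted p = 0.0255).

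The other calls between kidney and tail cultures rested on few reads. *Gata4* had 21 counts in KFc and 2 in TFc, *Tbx20* 5 and 25, and *Tbx5* 0 and 10, of which 9 were in TFc replicate 3. Without TFc replicate 3 the lower *Tbx20* and *Tbx5* levels in KFc were no longer called (adjusted p = 0.0674 and 0.324), and the *Tbx5* call was also lost without any 1 of the KFc libraries (adjusted p from 0.0589 to 0.0635). *Hand2* was called between KFs and TFs, with 52 and 4 counts (ratio 10.3, 95% exact interval 3.8 to 39.3), and also without KFs replicate 3 (adjusted p = 0.000394). All these organ comparisons share groups with one another and are not independent.

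Relatives of the members in the same protein families did not follow the same order. Of 26 relatives, 16 passed the filter on low counts, and in HFc against TFc 4 were higher and 4 lower, beside 20.9% and 21.0% of all genes, with a median log2 fold change of −0.29. *Msc*, a basic helix-loop-helix relative of *Tcf21*, was called higher in HFc, with 1.27 ± 0.163 CPM against 0 CPM in TFc. *Tbx2* was higher in HFs than in TFs (log2 fold change 1.73 ± 0.38, adjusted p = 0.00341). *Tbx4*, the hindlimb T-box factor, was lower in HFc than in TFc, with a log2 fold change of −4.78 ± 0.30 (0.263 ± 0.0713 against 7.47 ± 0.486 CPM, adjusted p = 2.72e-08). *Tbx3* was also lower in HFc (log2 fold change −2.12 ± 0.45, adjusted p = 0.00144), with 2.8 ± 0.495 against 12.2 ± 1.17 CPM. *Tbx15* was lower in HFs than in TFs (log2 fold change −1.99 ± 0.25, adjusted p = 2.86e-05). The T-box family was thus divided, with *Tbx20*, *Tbx5* and *Tbx18* higher in heart fibroblasts and *Tbx4* and *Tbx3* higher in tail culture. In HFs against HFc, 3 of 16 relatives were higher and 1 lower, beside 18.3% and 9.33% of all genes, among them *Meis2*, which rose with *Meis1* by 1.04 ± 0.14 (adjusted p = 1.11e-05).

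Among 46 other regulators of heart development, 35 were tested. HFc against TFc gave 12 higher and 10 lower, at a median of 0.09, beside 20.9% and 21.0% of all genes. HFs against TFs gave 12 higher and 6 lower, at a median of 0.20, beside 10.3% and 12.7%. *Isl1*, *Irx4* and *Mesp1*, early cardiac progenitor or ventricular factors, had at most 3 counts in every library of HFc and HFs. In HFs against HFc, 6 of the 35 were higher and 2 lower, beside 18.3% and 9.33%, led by *Hey2*, a Notch target of ventricular muscle and arteries, which fell by 2.36 ± 0.35 (adjusted p = 3.8e-05), and *Prdm16*, which rose by 1.98 ± 0.45 (adjusted p = 0.00166). *Wt1* was lower in HFc than in KFc (log2 fold change −4.39 ± 0.30, adjusted p = 4.71e-08).

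Across the 18 libraries, some members followed the heart groups closely, and others did so in part or not at all. As a description over libraries that share only 6 groups, Pearson's r between log2 CPM values was 0.97 for *Tbx20* and *Gata4*, 0.97 for *Gata4* and *Hand2* and 0.94 for *Tbx20* and *Hand2*. It was −0.02 for *Tbx20* and *Meis1* and 0.33 for *Mef2c* and *Meis1*. Other pairs lay between, such as *Tbx20* and *Gata6* (0.52), *Tbx18* and *Mef2c* (0.71) and *Gata6* and *Tcf21* (0.86). Outside the set, the gene most like *Tbx20* and *Gata4* was *Frzb*, a secreted Wnt antagonist (r = 0.979 and 0.978), at 184 CPM in HFc and 131 CPM in HFs against at most 11.3 CPM in the other group means. *Cdh19*, a cadherin of neural crest derivatives, was most like *Tbx5* (r = 0.965), *Nav1* most like *Gata6* (r = 0.985), *Nfia* most like *Tbx18* (r = 0.954) and *Klhl6* most like *Tcf21* (r = 0.976). *Rhox5* was most like *Hand2* (r = 0.972) and *Zfp619* most like *Mef2c* (r = 0.928). The gene most like *Meis1* was its own relative *Meis2* (r = 0.966).

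The second gene most like *Tbx20* was a long noncoding RNA, *5033428I22Rik* (r = 0.970), which lies 7.49 kb downstream of *Hand2* and not near *Tbx20*. Its mean level was 3.65 CPM in HFc and 3.76 CPM in HFs, and at most 0.0785 CPM in the other 4 groups, with r = 0.949 to *Hand2* itself. The *Hand2* gene on the upstream side, *Fbxo8*, lay 727 kb away and had group means between 8.98 and 14.8 CPM. Neighbours of the other members did not share the heart pattern in the same way. *Tbx3*, 148 kb upstream of *Tbx5*, was lowest in HFc, and *Dpy19l1*, 215 kb downstream of *Tbx20*, was highest in TFc at 205 CPM. *Neil2*, 5.07 kb downstream of *Gata4*, had group means between 0.426 and 1.8 CPM.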

How the data were processed

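Bulk RNA-seq was performed on 18 libraries (a stranded SMARTer Pico v2 kit for total RNA, single-end, NextSeq 500). The deposited values are estimated counts per gene, which the authors made with RSEM and Bowtie on trimmed reads, counting by strand, and which are whole numbers as deposited. The study's methods name GRCm38, whereas the submitters' processing notes list mm9. CPM values and tests here use the deposited counts and no coordinates. Levels per kilobase of exon, gene positions and distances rest on GENCODE M21, and upstream windows on RefSeq, both on GRCm38. Of 38924 rows, 1317 had no entry in that annotation (0.277% of counts). 3 counts equal 0.093 to 0.167 CPM (counts per 1000000) across libraries, and intervals and limits cover counting error only.

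Genes were filtered by group with edgeR 4.0.16 and scaled by the trimmed mean of M-values. Quasi-likelihood models held all 18 libraries and 1 mean per group, so that groups share 1 estimate of spread, and p-values were Benjamini-Hochberg adjusted over 16577 genes. Transplanted and cultured groups were called at an adjusted p below 0.05 and a log2 fold change beyond 1, as in the study. Comparisons between organs, and interactions, were called on the adjusted p alone. Ratios of summed counts replaced fitted folds where a group held at most 10 counts. Where all 3 libraries held 0, the limit of 3 counts per library was used.

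The members and lists were chosen with earlier results of these data known. Named genes are all 10 members, the 3 largest changes among called genes of each other list (further genes in the text were chosen after their values were seen) and the 2 genes with the highest Pearson correlation to each member. Alternatives were DESeq2 1.42.0 and its size factors, library size alone, no filter, a replicate block, only the groups compared, no fold limit, and leaving out each library. The fit was tested on simulated data.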

Additional observations from a re-analysis of the deposited data

Results flagged for a closer look

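The difference between organs in the response to transplantation passed the threshold for 3 member genes, by an interaction term in edgeR's quasi-likelihood fit over all 18 libraries. *Tbx18* changed less in heart than in tail fibroblasts, by −1.07 on the log2 scale (adjusted p = 0.0289). *Gata6* also changed less in heart than in tail fibroblasts, by −1.10 (adjusted p = 0.0257). *Hand2* changed by −0.59 in heart and by 1.68 in kidney fibroblasts, a difference of −2.27 (adjusted p = 0.00261). Its kidney value came from 17 counts in KFc and 52 in KFs, with every KFs library above every KFc library.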

How the results depend on the processing

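Of 84 single values, 51 kept their sign and call in every alternative, and of 1107 values under alternatives 1017 did, 63 lost a call, 20 gained one and 7 changed sign. The calls of *Tbx20* between HFs and HFc and between heart and tail were kept in every setting run. With library size alone, 2 members differed in response between heart and kidney, with *Tbx18* added. That scaling moved the median log2 difference of all genes between HFs and TFs from −0.03 to −0.25. With no fold limit, 5 members were called between HFs and HFc. When only the groups compared were fitted, 0 of the 6 members tested were called between KFs and KFc in edgeR, against 3 at an unadjusted p below 0.05 and 3 in DESeq2 over all libraries. In that fit 3 were called between KFc and TFc, of 5 tested, and 2 between KFs and TFs, of 5 tested. By construction that fit tests fewer genes and shares no spread with other groups, and the cause of the other changes was not tested.

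When libraries were left out in turn, the number of members called ranged from 0 to 1 for the response of heart against tail (2 with all libraries), from 0 to 1 for kidney against tail, from 1 to 3 for heart against kidney and from 2 to 5 for KFs against KFc. The 7 changes of sign were in responses near 0 that were not called. *Mef2c* between heart and tail ranged from −0.16 to 0.09, where the 3 fits of opposite sign gave 0.033, 0.053 and 0.086. *Meis1* between kidney and tail ranged from −0.19 to 0.32, where 3 fits gave −0.19, −0.05 and −0.0048. *Gata6* between heart and kidney ranged from −0.44 to 0.081. The cause of these changes was not tested.

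The replicate numbers did not pair the samples: same-numbered libraries had residual correlations between −0.14 and 0.08. With a replicate block, 2 members were called between HFs and HFc and 3 between KFs and KFc, where *Mef2c* (0.99) and *Tcf21* (adjusted p = 0.0637) were lost, and 7 between HFc and TFc, where *Meis1* was lost (adjusted p = 0.0561). *Gata6* between HFs and KFs was gained under the block, at the threshold. No other call changed.

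At this depth, members with a few counts per library (*Gata5* throughout, *Tbx20*, *Tbx5*, *Gata4* and *Hand2* outside the heart) could not show a change of small size.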

Other observations

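*Aldh1a2*, an epicardial enzyme of retinoic acid synthesis, rose by 5.03 ± 0.54 on the log2 scale in TFs against TFc (1.57 ± 0.0707 to 51.8 ± 17.9 CPM, adjusted p = 4.51e-06 in edgeR), while *Upk3b*, *Upk1b* and *Lrrn4* were at 0 counts in both tail groups. *Heyl*, a Notch target, had at most 2 counts in any TFc library and a mean of 7.52 ± 2.47 CPM in TFs.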
